A study of Mus musculus with 9 samples.

Results

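The 10 megakaryocyte and platelet genes Pf4, Gp9, Gp1ba, Gp1bb, Gp6, Itga2b, Itgb3, Selp, Plek and Ppbp were followed in RNA of mouse cells sorted as LT-HSCs (long-term hematopoietic stem cells). They were taken by name, as known genes of these cells, with earlier results of these data in view, and all 10 were found among the 56262 genes counted. All mice were C57BL/6 wild type. The 5-FU+FMT mice received 5-FU (5-fluorouracil, which is toxic to cycling cells) at 250 mg/kg and then intravenous FMT (the abbreviation is not explained in the labels) at 5 mg/kg on days 1, 4 and 7. The 5-FU+Saline mice received the same 5-FU followed by saline, given as PBS in the treatment label, on a schedule the labels do not state. Cells of both groups were taken on day 8, and Control mice were untreated, so both treated groups share the 5-FU that Control lacks. Each group held 3 libraries, and the labels do not say whether a library is 1 mouse or a pool, so p-values may measure technical spread only.

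Megakaryocytes are the large marrow cells that shed platelets. Platelets stick to damaged vessels through surface receptors, the GPIb-IX complex for von Willebrand factor, GPVI for collagen and the integrin alphaIIb-beta3 for fibrinogen, and they release adhesive proteins and chemokines from alpha granules. Part of the LT-HSC pool transcribes several of these genes, Itga2b among them, and CD41, the Itga2b protein, also marks early blood progenitors. In bulk RNA, fewer cells of a type and less RNA per cell cannot be told apart, which holds for every level below.

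The genes moved in different directions. Of the 10 genes, 8 had counts high enough to be tested, and a gene is said to have risen or fallen, or to be called, where its adjusted p was under 0.05 over all genes. In 5-FU+Saline against Control 1 of the 8 rose and 5 fell, where 32.8% of all genes tested rose and 32.7% fell (65.5% called in either direction). Plek was 10.9-fold lower and Selp 6.11-fold higher, while Gp9 and Gp1ba passed no test in any comparison. In 5-FU+FMT against 5-FU+Saline 4 of the 8 rose and 1 fell, against 17.7% and 19.2% of all genes (36.9% in all). In 5-FU+FMT against Control 1 of the 8 rose and 5 fell, against 25.0% and 21.6% of all genes (46.6% in all). The median log2 fold change of the 8 was -0.50, 0.21 and -0.27 in these comparisons, and that of all genes -0.02, 0.01 and -0.01. The libraries of the groups compared did not overlap in CPM (counts scaled to TMM-adjusted library size, the unit of all levels here) for 6 of the 8 in 5-FU+Saline against Control (67.8% of all genes), 5 in 5-FU+FMT against 5-FU+Saline (46.3%) and 4 in 5-FU+FMT against Control (52.7%). The 3 comparisons share libraries and are not independent. Scaling moved the direction of calls over all genes: in 5-FU+FMT against Control 42.1% of called genes were higher with upper-quartile factors and 53.7% with the TMM factors used here.

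The bases just before the annotated start of 6 of the genes are given because these genes stand for the 3 kinds of behaviour seen here: Pf4, Ppbp and Plek were lower after 5-FU, Selp was higher, and Gp1ba and Gp9 passed no test. Each line holds 150 bases, 5′ to 3′ on the gene's own strand, from RefSeq on GRCm38.p6, the assembly of mm10, and ends at the base before the RefSeq start, which for Plek lies inside the span of the gene in the count tables. Capitals mark the GATA motif, searched as AGATAA, further as TGATAA, then as AGATAG and lastly as TGATAG, or the ETS motif, searched as AGGAAG and then as CGGAAG, each on both strands. GATA1 and the ETS protein FLI1 are known regulators of megakaryocyte genes.
Pf4, chr5:90772285-90772434, plus strand: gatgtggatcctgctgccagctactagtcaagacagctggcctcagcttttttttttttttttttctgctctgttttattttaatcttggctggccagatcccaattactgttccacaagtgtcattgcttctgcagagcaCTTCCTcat
Ppbp, chr5:90768368-90768517, plus strand: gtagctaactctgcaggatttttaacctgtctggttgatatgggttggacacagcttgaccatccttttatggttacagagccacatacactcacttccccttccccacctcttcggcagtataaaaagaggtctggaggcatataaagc
Plek, chr11:17008719-17008868, minus strand: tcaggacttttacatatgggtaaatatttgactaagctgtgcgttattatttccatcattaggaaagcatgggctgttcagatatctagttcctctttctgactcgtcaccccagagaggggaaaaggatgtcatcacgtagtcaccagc
Selp, chr1:164115114-164115263, plus strand: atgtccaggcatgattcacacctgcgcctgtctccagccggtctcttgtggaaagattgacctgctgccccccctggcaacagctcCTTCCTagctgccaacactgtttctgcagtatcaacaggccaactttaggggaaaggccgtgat
Gp1ba, chr11:70638972-70639121, plus strand: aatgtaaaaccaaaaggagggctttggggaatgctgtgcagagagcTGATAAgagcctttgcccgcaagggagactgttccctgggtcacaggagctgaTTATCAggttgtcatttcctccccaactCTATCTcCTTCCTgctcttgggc
Gp9, chr6:87777920-87778069, plus strand: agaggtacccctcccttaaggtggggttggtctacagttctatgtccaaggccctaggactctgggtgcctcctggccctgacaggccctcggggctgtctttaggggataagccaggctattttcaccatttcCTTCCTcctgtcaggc
Of the 10 genes, 9 had a RefSeq promoter entry, Itgb3 being the other. Within 250 bases before the start, GATA letters stood in 3 of the 9 (Gp1ba, Gp1bb and Gp6) and ETS letters in 6 of the 9 (Pf4, Gp9, Gp1ba, Gp1bb, Itga2b and Selp). Both motifs stood in Gp1ba and Gp1bb, and no base belonged to both. Of the 150 bases nearest the start, all 150 of Gp1bb and 91 of Itga2b lay in exons of the count tables. Of 32851 RefSeq windows of this length, 26.5% held the GATA letters, 39.2% the ETS letters and 9.21% both. Gp1ba had 3 GATA matches, at bases -104 to -99, -51 to -46 and -23 to -18 from the start, and 1 ETS match at -16 to -11, while Gp9 had its 1 ETS match at the same distance, -16 to -11. The matches describe letters only and were not tied to the expression values.

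The libraries differed by group in more than these genes. Total counts ranged from 11098031 to 19270976 per library. Spearman correlations across genes were 0.993 to 0.994 for the 9 library pairs within a group and 0.947 to 0.983 for the 27 pairs between groups. The X-inactivation RNA Xist averaged, in CPM, 682 in 5-FU+FMT, 1201 in 5-FU+Saline and 0.870 in Control. The Y-linked Ddx3y averaged 100.04 in 5-FU+FMT, 38.9 in 5-FU+Saline and 168 in Control. Every treated library held both RNAs. Xist spanned 659 to 695 CPM and Ddx3y 98.0 to 102 over the 5-FU+FMT libraries. Over the 5-FU+Saline libraries Xist spanned 1183 to 1223 CPM and Ddx3y 37.1 to 41.9. Whether these libraries pooled mice of both sexes was not tested. Treatment and the difference between groups in sex-linked RNA cannot be told apart in any comparison. Slamf1, which encodes the positive sort marker CD150, averaged 24.4 CPM in 5-FU+FMT, 34.5 in 5-FU+Saline and 8.35 in Control. Cd48, which appears to be the negative gate spelled C48- in the labels, averaged 46.7 CPM in 5-FU+FMT, 53.7 in 5-FU+Saline and 30.7 in Control. Both were detected in every library, and per kilobase of exon Cd48 (25.8 ± 1.07 CPM per kilobase in Control) was above Slamf1 (1.36 ± 0.188 in Control) in each group. A few megakaryocyte genes were near or under 1 CPM, unlike most of those described here. Tubb1, the platelet tubulin, averaged 0.717 CPM in 5-FU+FMT, 0.693 in 5-FU+Saline and 1.11 in Control, and the inhibitory receptor gene Mpig6b 0.156 CPM in 5-FU+FMT, 0.109 in 5-FU+Saline and 0.373 in Control.

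The fibrinogen receptor genes were both lower after 5-FU, by unequal amounts. Itga2b, the alphaIIb subunit (ENSMUSG00000034664.13, mm10 chromosome 11, 102453297 to 102470122), had 91.3, 99.3 and 96.0 CPM in 5-FU+FMT libraries, 89.2, 87.0 and 89.6 in 5-FU+Saline and 106, 97.4 and 104 in Control. Its 5-FU+Saline libraries were all below those of both other groups, and the libraries of 5-FU+FMT and Control overlapped. Itga2b fell 1.16-fold in 5-FU+Saline (log2 fold change -0.22 ± 0.0460 SE, edgeR adjusted p = 3.17e-05), the smallest called change among the listed genes in that comparison. In 5-FU+FMT its log2 fold change was 0.11 against 5-FU+Saline (adjusted p = 0.0595) and -0.11 against Control (adjusted p = 0.0476). The first was called under 4 of the 17 alternative settings and the second was lost under 10, with adjusted p between 0.025 and 0.272 and between 0.00121 and 0.387 over the 17.

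Itgb3, the beta3 subunit, which also pairs with the alphaV chain (ENSMUSG00000020689.4, mm10 chromosome 11, 104608000 to 104670476), had 32.9, 35.1 and 37.6 CPM in 5-FU+FMT, 29.3, 26.7 and 28.8 in 5-FU+Saline and 59.4, 54.0 and 54.1 in Control. The 3 groups did not overlap in any pair of libraries. Itgb3 fell 1.97-fold in 5-FU+Saline against Control (adjusted p = 3.96e-21) and fell 1.59-fold in 5-FU+FMT against Control (adjusted p = 2.95e-13). Against 5-FU+Saline it rose 1.24-fold in 5-FU+FMT (log2 fold change 0.32 ± 0.0738 SE, adjusted p = 0.000334). Within each library the ratio of Itgb3 to Itga2b, both as CPM per kilobase of exon, was 0.333, 0.327 and 0.362 in 5-FU+FMT, 0.303, 0.284 and 0.297 in 5-FU+Saline and 0.516, 0.513 and 0.478 in Control. The ratio was thus highest in Control and lowest in 5-FU+Saline, with no overlap between groups. With 3 libraries against 3, a two-sided exact permutation test of such a ratio cannot go below 0.1, so none is given.

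The von Willebrand factor receptor is the GPIb-IX complex, built from GPIb-alpha (Gp1ba), GPIb-beta (Gp1bb) and GPIX (Gp9). Gp1ba, the subunit that binds von Willebrand factor (ENSMUSG00000050675.7, mm10 chromosome 11, 70639122 to 70642036), had 8.88, 9.55 and 11.3 CPM in 5-FU+FMT, 8.66, 10.1 and 10.3 in 5-FU+Saline and 10.3, 11.8 and 9.44 in Control. Gp9, the small subunit needed for the complex to reach the surface (ENSMUSG00000030054.4, mm10 chromosome 6, 87778072 to 87779768), had 7.72, 10.04 and 9.32 CPM in 5-FU+FMT, 10.5, 8.59 and 9.35 in 5-FU+Saline and 9.69, 8.80 and 7.57 in Control. The libraries of the 3 groups overlapped for both genes. For Gp1ba the log2 fold changes were -0.10 in 5-FU+Saline against Control (95% interval -0.37 to 0.17), 0.03 in 5-FU+FMT against 5-FU+Saline (-0.25 to 0.30) and -0.07 in 5-FU+FMT against Control (-0.35 to 0.20). For Gp9 they were 0.14 in 5-FU+Saline against Control (-0.15 to 0.42), -0.07 in 5-FU+FMT against 5-FU+Saline (-0.35 to 0.21) and 0.06 in 5-FU+FMT against Control (-0.23 to 0.35). The adjusted p of these 6 tests lay between 0.41 and 0.91. True changes anywhere inside these intervals remain compatible with the counts.

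Gp1bb (ENSMUSG00000050761.4, mm10 chromosome 16, 18620317 to 18622403) was listed at 0 counts in all 9 libraries. Of its 2087 exon bases, 1938 (92.9%) also belonged to exons of other genes on the same strand, mainly Sept5, which shares 1902. The only stretch of its own was 149 bases long, at the end of the gene. There a trimmed read, or one running past the end of the gene, could still be counted. The file headers show no option to count reads that touch more than 1 gene, and Sept5 itself had 1 to 8 counts a library. The value of 0 therefore reflects little beyond that stretch and is no measure of Gp1bb RNA as a whole, and GPIb-beta is not analysed here.

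Gp5, the subunit that joins GPIb-IX at the platelet surface and was taken from the wider gene lists, averaged 7.23 ± 0.759 CPM in 5-FU+FMT, 10.1 ± 0.978 in 5-FU+Saline and 7.48 ± 0.805 in Control (SD, n = 3). It rose 1.37-fold in 5-FU+Saline against Control (adjusted p = 0.00464) and fell 1.41-fold in 5-FU+FMT against 5-FU+Saline (adjusted p = 0.00428). Gp6, the collagen receptor GPVI (ENSMUSG00000078810.4, mm10 chromosome 7, 4363965 to 4397744), had 2, 3 and 5 counts in 5-FU+FMT, 2, 1 and 0 in 5-FU+Saline and 9, 0 and 7 in Control, too few for a test.

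Both alpha-granule chemokines were lower after 5-FU. Pf4, platelet factor 4 (ENSMUSG00000029373.7, mm10 chromosome 5, 90772435 to 90773383), had 10.9, 12.3 and 17.1 CPM in 5-FU+FMT, 11.5, 9.48 and 10.7 in 5-FU+Saline and 17.7, 16.7 and 19.7 in Control. All 5-FU+Saline libraries were below all Control libraries, while 5-FU+FMT libraries overlapped both other groups. Pf4 fell 1.72-fold in 5-FU+Saline against Control (log2 fold change -0.78 ± 0.122 SE, adjusted p = 4.76e-08) and fell 1.36-fold in 5-FU+FMT against Control (adjusted p = 0.00166). Against 5-FU+Saline it rose 1.27-fold in 5-FU+FMT (adjusted p = 0.0264), a call that rested on 5-FU+FMT replicate 3: without it the log2 fold change was 0.13 (adjusted p = 0.503). That call was also lost without 5-FU+Saline replicate 2 (adjusted p = 0.132) or 3 (0.0529) and with DESeq2 (0.083) or limma-voom (0.0617), and the call against Control was lost without 5-FU+FMT replicate 1 (0.0544).

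Ppbp, the precursor of further platelet chemokines (ENSMUSG00000029372.7, mm10 chromosome 5, 90768518 to 90770063), lies beside Pf4 on the same strand and had 3.60, 2.46 and 2.96 CPM in 5-FU+FMT, 0.397, 1.85 and 1.45 in 5-FU+Saline and 7.08, 5.78 and 5.86 in Control. Behind these stood 56, 35 and 41 counts in 5-FU+FMT, 6, 29 and 28 in 5-FU+Saline and 95, 63 and 110 in Control. The 3 groups did not overlap, and 5-FU+Saline replicate 1 was the lowest library. Ppbp fell 4.98-fold in 5-FU+Saline against Control (log2 fold change -2.32 ± 0.274 SE, adjusted p = 1.02e-11) and fell 2.07-fold in 5-FU+FMT against Control (adjusted p = 0.000245), and rose 2.41-fold in 5-FU+FMT against 5-FU+Saline (adjusted p = 0.000313). The ratio of Ppbp to Pf4 in CPM per kilobase was 0.219, 0.133 and 0.115 in 5-FU+FMT libraries, 0.0230, 0.130 and 0.0896 in 5-FU+Saline and 0.267, 0.230 and 0.198 in Control. Its 5-FU+Saline libraries were all below the Control libraries, and 5-FU+FMT overlapped both.

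Selp, P-selectin, an adhesion receptor stored in alpha granules and in the secretory granules of endothelial cells (ENSMUSG00000026580.16, mm10 chromosome 1, 164115264 to 164150026), was the listed gene that rose against Control in both treated groups. It had 77.6, 75.9 and 67.8 CPM in 5-FU+FMT, 102, 111 and 104 in 5-FU+Saline and 16.9, 16.6 and 18.2 in Control. The groups did not overlap, and both treated groups stood far above Control. Selp rose 6.11-fold in 5-FU+Saline against Control (log2 fold change 2.61 ± 0.0657 SE, adjusted p = 7.8e-49) and rose 4.26-fold in 5-FU+FMT against Control (adjusted p = 1.32e-40), and fell 1.43-fold in 5-FU+FMT against 5-FU+Saline (adjusted p = 1.55e-13). A pair of genes on the other strand, Gm16548 and Gm16587, share 9.93% and 4.21% of its exon bases, and counting did not use strand.

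Endothelial markers did not all move with Selp. Of 10 endothelial genes 8 rose and 1 fell in 5-FU+Saline against Control, 1 rose and 5 fell in 5-FU+FMT against 5-FU+Saline, and 6 rose and 1 fell in 5-FU+FMT against Control. Of all genes tested, 65.5%, 36.9% and 46.6% were called in these comparisons. Their summed level spanned 314 to 342 CPM in 5-FU+FMT, 355 to 367 in 5-FU+Saline and 319.9 to 341 in Control. None of the 10 was at 0 in a group, but 4 (Cdh5, Sele, Flt1 and Fabp4) were under 1 CPM in Control and Sele also in 5-FU+FMT. Cdh5, the junction protein of endothelium, averaged 3.06 CPM in 5-FU+FMT, 7.52 in 5-FU+Saline and 0.224 in Control, and Sele, the selectin of inflamed endothelium, 0.913 CPM in 5-FU+FMT, 1.64 in 5-FU+Saline and 0.800 in Control. Robo4 ran opposite to Selp, with 46.1 CPM in 5-FU+FMT, 31.3 in 5-FU+Saline and 75.7 in Control. Most of the sum was Tie1, with 208 CPM in 5-FU+FMT, 219 in 5-FU+Saline and 207 in Control. The sums of 5-FU+FMT and Control overlapped, with Tie1 as their largest part. Other members had the group order of Selp. Fabp4 averaged 3.88 CPM in 5-FU+FMT, 19.2 in 5-FU+Saline and 0.320 in Control. In that order of groups Kdr averaged 6.47, 10.5 and 2.38 CPM and Plvap 7.46, 13.2 and 3.21. Likewise Stab2 averaged 25.4, 36.9 and 14.6 CPM and Flt1 2.25, 3.03 and 0.890. Emcn differed little, with 23.0, 20.6 and 22.2 CPM. The part of endothelial RNA in the Selp result was not tested.

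Plek, pleckstrin, a protein kinase C substrate of platelets that many leukocytes also make (ENSMUSG00000020120.15, mm10 chromosome 11, 16971206 to 17052381), changed most of the listed genes in 5-FU+Saline against Control and in 5-FU+FMT against 5-FU+Saline, and Selp in 5-FU+FMT against Control. Plek had 129.9, 129 and 134 CPM in 5-FU+FMT, 26.6, 27.2 and 26.5 in 5-FU+Saline and 297, 285 and 295 in Control. Libraries of a group lay within a few percent of each other and the groups were far apart. Plek fell 10.9-fold in 5-FU+Saline against Control (log2 fold change -3.45 ± 0.0444 SE, adjusted p = 8.8e-69) and fell 2.24-fold in 5-FU+FMT against Control (adjusted p = 5.27e-42), and rose 4.89-fold in 5-FU+FMT against 5-FU+Saline (adjusted p = 4.48e-54). Cnrip1 on the other strand shares 4.44% of its exon bases.

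Neutrophil genes went both ways beside Plek. The summed level of 10 neutrophil genes was 1019 to 1145 CPM in 5-FU+FMT, 235 to 249.6 in 5-FU+Saline and 2534 to 2573 in Control. Mpo, the granule peroxidase, held the largest share of it in 5-FU+FMT and in Control, with 469 CPM in 5-FU+FMT, 29.9 in 5-FU+Saline and 1277 in Control. Of the 10 genes, 4 rose and 5 fell in 5-FU+Saline against Control, 5 rose and 4 fell in 5-FU+FMT against 5-FU+Saline, and 3 rose and 5 fell in 5-FU+FMT against Control. For these and the monocyte and macrophage genes below, the share of all genes called was 65.5%, 36.9% and 46.6% in these comparisons. In 5-FU+Saline against Control, where Plek fell, Mpo fell 42.6-fold and Elane, the neutrophil elastase gene, fell 79.5-fold, while Ltf rose 45.7-fold, Ngp rose 10.5-fold, S100a9 rose 3.18-fold and Camp rose 2.45-fold. None was at 0 in a group, and Ltf and Ngp were under 1 CPM in Control. The summed level of 10 monocyte and macrophage genes was 207 to 218 CPM in 5-FU+FMT, 214 to 219 in 5-FU+Saline and 240.5 to 259.8 in Control. Of these 10, 6 rose and 3 fell in 5-FU+Saline against Control, 3 rose and 4 fell in 5-FU+FMT against 5-FU+Saline, and 5 rose and 3 fell in 5-FU+FMT against Control. None was at 0 in a group, though Adgre1, the F4/80 macrophage gene, was under 1 CPM in 5-FU+FMT and Control, and C1qa and Fcgr1 in Control. Their part in the Plek result was not tested.

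Other lineages shifted in the same libraries. The counts below stand beside 65.5% of all genes called in 5-FU+Saline against Control. That share was 36.9% in 5-FU+FMT against 5-FU+Saline and 46.6% in 5-FU+FMT against Control. Erythroid cells share regulators with megakaryocytes. The sum of 12 erythroid genes was 807 to 847 CPM in 5-FU+FMT, 466 to 478 in 5-FU+Saline and 1304 to 1327 in Control. Car2 held most of it, with 597 CPM in 5-FU+FMT, 416 in 5-FU+Saline and 823 in Control. Of the 12, 1 (Hbb-bt) rose and 11 fell in 5-FU+Saline against Control, with a median log2 fold change of -4.52. In 5-FU+Saline 6 of the 12 were under 1 CPM. In 5-FU+FMT, 10 rose and 1 fell against 5-FU+Saline, and 1 rose and 10 fell against Control. The sum of 8 mast cell and basophil genes was 67.8 to 71.5 CPM in 5-FU+FMT, 20.7 to 22.2 in 5-FU+Saline and 109.9 to 111 in Control. Of the 8, 2 rose and 6 fell in 5-FU+Saline against Control, 7 rose and 0 fell in 5-FU+FMT against 5-FU+Saline, and 2 rose and 5 fell in 5-FU+FMT against Control. None of these 20 genes was at 0 in a group. B cell and stromal genes moved the opposite way. The sum of 9 B cell genes was 425 to 468 CPM in 5-FU+FMT, 919 to 937 in 5-FU+Saline and 54.6 to 55.1 in Control, and of the 9, 9 rose and 0 fell in 5-FU+Saline against Control, 0 rose and 9 fell in 5-FU+FMT against 5-FU+Saline, and 9 rose and 0 fell in 5-FU+FMT against Control. The sum of 8 stromal genes was 42.0 to 45.6 CPM in 5-FU+FMT, 211 to 219 in 5-FU+Saline and 2.77 to 3.13 in Control, and of the 8, 8 rose and 0 fell in 5-FU+Saline against Control, 0 rose and 8 fell in 5-FU+FMT against 5-FU+Saline, and 8 rose and 0 fell in 5-FU+FMT against Control, with Col6a1 at 0 in Control. The 12 stem and progenitor genes summed to 2081 to 2150.1 CPM in 5-FU+FMT, 1518 to 1539 in 5-FU+Saline and 2869.7 to 2898 in Control, and of the 12, 5 rose and 5 fell in 5-FU+Saline against Control, 5 rose and 4 fell in 5-FU+FMT against 5-FU+Saline, and 5 rose and 5 fell in 5-FU+FMT against Control. Among them Flt3 averaged 280 CPM in 5-FU+FMT, 70.9 in 5-FU+Saline and 584 in Control. In that order of groups Cd34 averaged 413, 274 and 559 CPM, Kit 537, 410 and 754, and Hlf 394, 243 and 565. Slamf1 and Cd48 ran the other way, as given above. So did Mecom (147, 154 and 117 CPM) and Ctnnal1 (32.7, 41.5 and 19.6). The part of these lineages and of progenitors in the changes of the megakaryocyte and platelet genes was not tested.

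**Figure D1:**
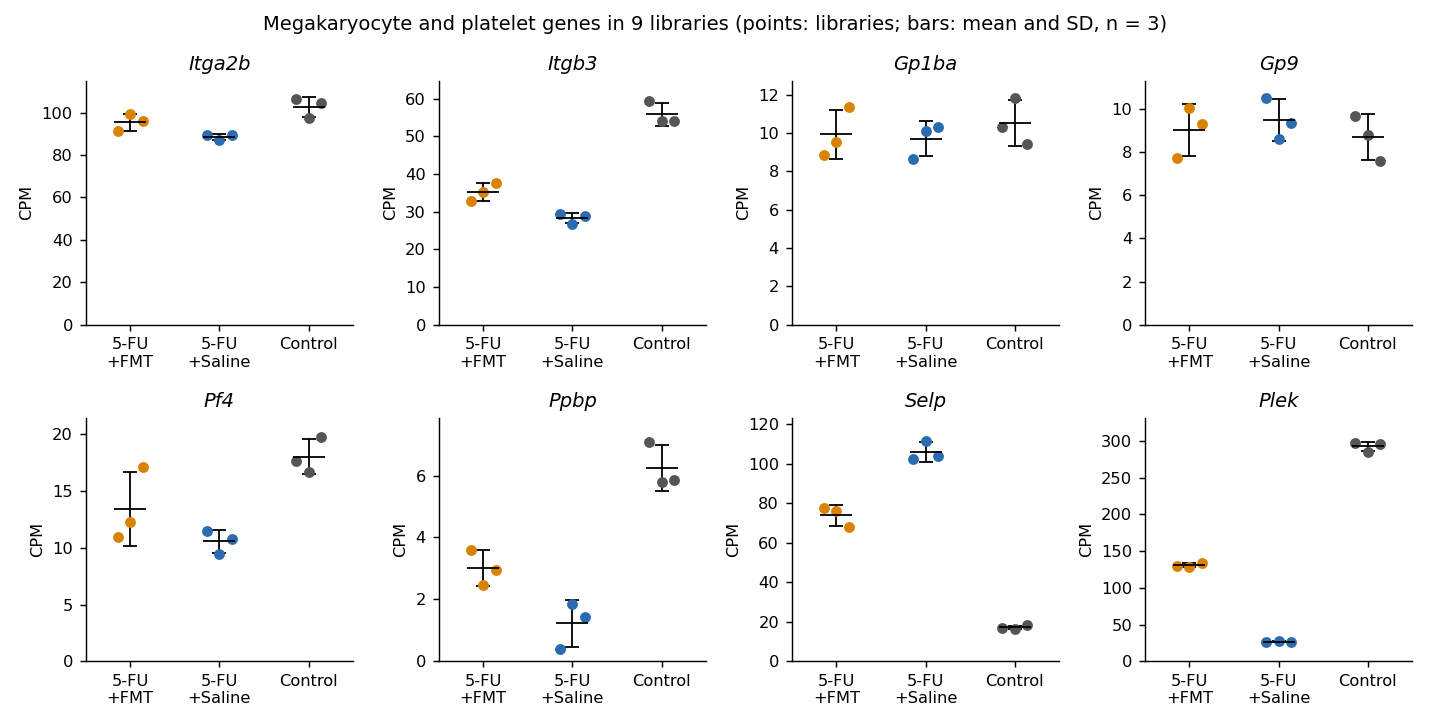
Level of the 8 tested genes (CPM, vertical axes from 0) in 5-FU+FMT, 5-FU+Saline and Control. Points are libraries and bars the mean and SD of 3. Plek averages 131 CPM in 5-FU+FMT, 26.8 in 5-FU+Saline and 293 in Control and Selp 73.8 CPM in 5-FU+FMT, 106 in 5-FU+Saline and 17.2 in Control, while the Gp1ba and Gp9 points of the 3 groups overlap.

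**Figure D2:**
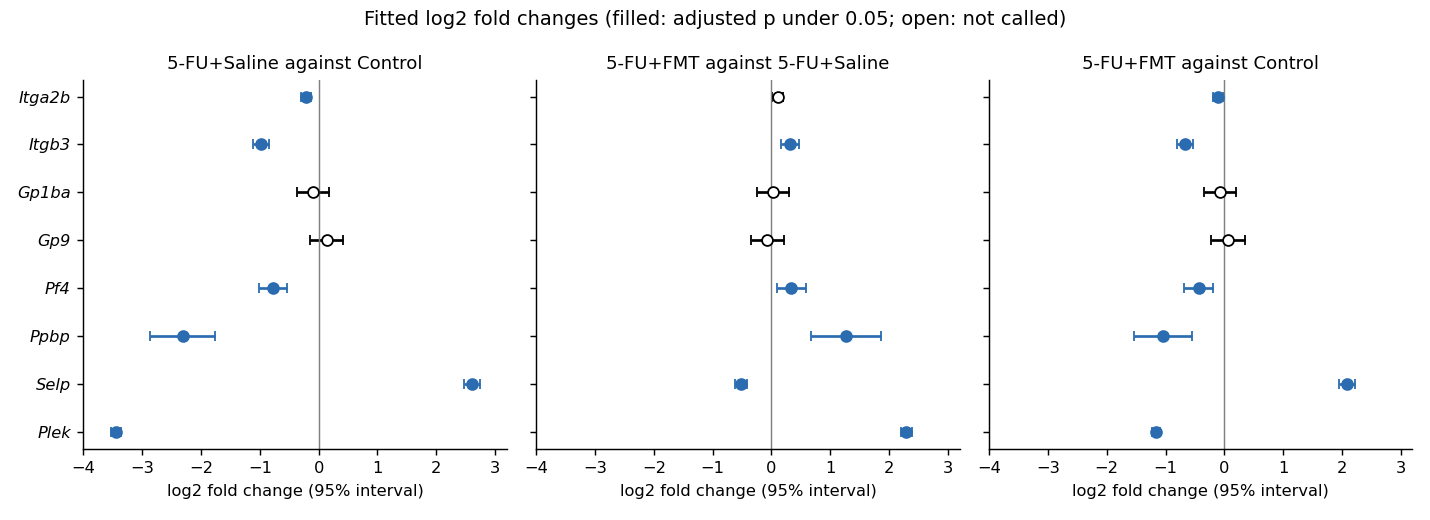
Fitted log2 fold change (horizontal axis) with its 95% interval for the 8 tested genes in each comparison. Filled points passed an adjusted p under 0.05. In 5-FU+Saline against Control the values run from -3.45 for Plek to 2.61 for Selp.

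The plot of levels shows the 3 groups side by side for each gene, and the plot of fitted changes shows that Plek, Ppbp, Itgb3 and Pf4 lay below 0 in 5-FU+Saline against Control and above 0 in 5-FU+FMT against 5-FU+Saline, where Selp lay on the opposite side each time. Per kilobase of exon, the order of the genes differed between groups. In 5-FU+FMT it was Plek (29.2 ± 0.678 CPM per kilobase, SD), Pf4 (18.6 ± 4.51), Itga2b (17.5 ± 0.734) and Selp (16.7 ± 1.19), and of these neighbours Pf4, Itga2b and Selp overlapped. In 5-FU+Saline it was Selp (24.0 ± 1.11), Itga2b (16.2 ± 0.259), Pf4 (14.7 ± 1.42) and Gp9 (10.8 ± 1.10), with Itga2b and Pf4 overlapping. In Control it was Plek (65.2 ± 1.41), Pf4 (25.0 ± 2.15), Itga2b (18.8 ± 0.861) and Gp9 (9.86 ± 1.21), and Gp9 overlapped the next gene, Itgb3 (9.46 ± 0.521). Among the 9 genes with counts, Selp ranked 4 in 5-FU+FMT, 1 in 5-FU+Saline and 7 in Control, and Plek ranked 1 in 5-FU+FMT, 5 in 5-FU+Saline and 1 in Control. In Control, Selp (3.90 ± 0.193) overlapped Gp1ba (3.87 ± 0.446).

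Of 6 genes set against Itga2b in the same library, the ratio differed most between groups for Selp and Plek. Selp over Itga2b, in CPM per kilobase, was 1.05, 0.945 and 0.873 in 5-FU+FMT, 1.42, 1.58 and 1.44 in 5-FU+Saline and 0.196, 0.211 and 0.215 in Control. Plek over Itga2b was 1.73, 1.57 and 1.70 in 5-FU+FMT libraries, 0.362, 0.380 and 0.360 in 5-FU+Saline and 3.40, 3.56 and 3.43 in Control. Neither ratio overlapped between groups. Gp1ba over Itga2b was 0.195, 0.193 and 0.237 in 5-FU+FMT libraries, 0.195, 0.233 and 0.231 in 5-FU+Saline and 0.194, 0.244 and 0.181 in Control, and the 3 groups overlapped.

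**Figure D3:**
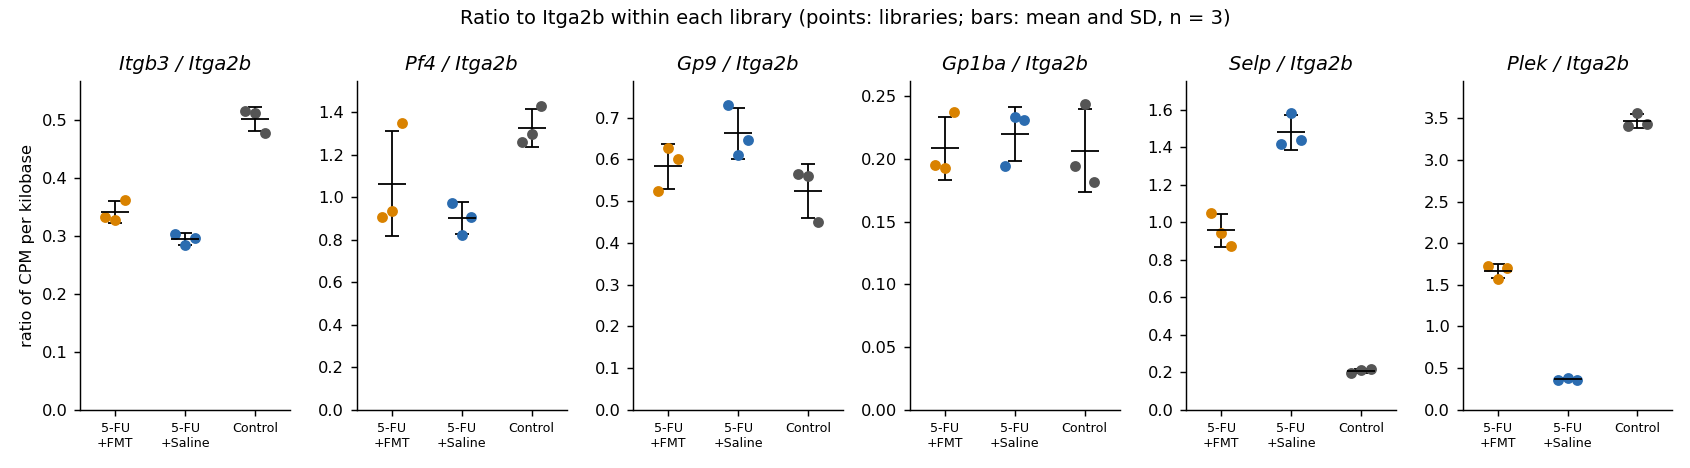
Ratio of 6 genes to Itga2b within each library (CPM per kilobase of exon, vertical axes from 0) in 5-FU+FMT, 5-FU+Saline and Control, with points for libraries and bars for the mean and SD of 3. The Gp1ba points of the 3 groups overlap, while the Itgb3, Selp and Plek points of the groups stand apart.

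The wider megakaryocyte program was read from 72 further genes in 4 lists, of which 70 were tested. In 5-FU+Saline against Control 31 of the 70 rose (44.3%) and 27 fell (38.6%), where 32.8% of all genes tested rose and 32.7% fell. The median log2 fold change was 0.01 beside -0.02 for all genes. The counts of the 4 lists in this comparison are to be read against the same shares of all genes. Of 14 transcription factors 2 rose and 8 fell, none by 2-fold (median -0.23). Gata1, the factor that megakaryocytes and red cells need, averaged 22.3 ± 1.10 CPM in 5-FU+Saline and 24.3 ± 2.87 in Control (SD, n = 3 each, adjusted p = 0.263), and Fli1 80.3 ± 2.29 CPM in 5-FU+Saline and 82.2 ± 3.69 in Control (adjusted p = 0.632). Mafg, a partner of NF-E2, fell 1.45-fold, Meis1 fell 1.42-fold and Runx1, whose loss impairs megakaryocyte maturation, fell 1.41-fold, while Zfpm1, the GATA1 cofactor FOG1, rose 1.29-fold and Lyl1 rose 1.12-fold.

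Receptors and signalling genes split. Of 27 tested 15 rose and 10 fell in 5-FU+Saline against Control (median 0.36). Pear1, a platelet aggregation receptor, fell 1.71-fold and the adaptor Lat fell 1.80-fold. F2r, a thrombin receptor of human platelets, rose 2.66-fold, the adhesion molecule Esam rose 1.83-fold and talin (Tln1), which activates integrins, rose 1.33-fold.

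Of 17 granule cargo and packaging genes 6 rose and 8 fell (median -0.03). Vwf, von Willebrand factor, the ligand of GPIb-alpha, had 176, 179 and 171 CPM in 5-FU+Saline and 52.9, 59.97 and 55.1 in Control and rose 3.14-fold (adjusted p = 2.34e-46). The growth factor gene Tgfb1 rose 2.32-fold and clusterin (Clu) rose 3.57-fold, while the clotting factor gene F13a1 fell 6.79-fold, the dense granule transporter gene Slc35d3 fell 6.20-fold and the granule proteoglycan gene Srgn fell 1.50-fold. Of 12 tested cytoskeleton and enzyme genes 8 rose and 1 fell (median 0.27). The tropomyosin Tpm4 rose 4.32-fold, the non-muscle myosin Myh9 rose 1.34-fold and cyclooxygenase 1 (Ptgs1) rose 1.75-fold, and thromboxane synthase (Tbxas1) fell 1.46-fold. Many genes of these lists, Tpm4, Myh9, Tgfb1 and Tln1 among them, are also made by other blood, endothelial or stromal cells.

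In 5-FU+FMT against 5-FU+Saline 20 of the 70 genes rose (28.6%) and 25 fell (35.7%), with a median of -0.03 (all genes 0.01). Of all genes tested 17.7% rose and 19.2% fell, the shares to set beside each list here. Of the transcription factors 6 rose and 1 fell: Meis1 rose 1.14-fold, Mafg rose 1.17-fold, Runx1 rose 1.16-fold and Zfpm1 fell 1.19-fold. Gata1 (adjusted p = 0.813) and Fli1 (0.836) were not called. Of the receptors and signalling genes 7 rose and 12 fell. Pear1 rose 1.28-fold and the collagen-binding integrin chain Itga2 rose 2.26-fold, while F2r fell 1.48-fold, Tln1 fell 1.15-fold and kindlin-3 (Fermt3) fell 1.13-fold.

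Granule genes were split in the same comparison, with 6 that rose and 5 that fell. Slc35d3 rose 3.12-fold, F13a1 rose 2.82-fold and Srgn rose 1.21-fold. Vwf had 122, 114 and 117 CPM in 5-FU+FMT and fell 1.48-fold, Tgfb1 fell 1.38-fold and the protease inhibitor Timp3 fell 1.48-fold. Of the cytoskeleton and enzyme genes 1, Tbxas1, rose (1.16-fold) and 7 fell, including Tpm4 (1.48-fold), Myh9 (1.16-fold) and Ptgs1 (1.24-fold). Tubb1 was not called in any comparison, with adjusted p of 0.294 in 5-FU+Saline against Control, 0.967 in 5-FU+FMT against 5-FU+Saline and 0.384 in 5-FU+FMT against Control.

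In 5-FU+FMT against Control 22 of the 70 genes rose (31.4%) and 21 fell (30%), with a median of -0.03 (all genes -0.01). Of all genes tested 25.0% rose and 21.6% fell, the shares to set beside each list here. Transcription factors counted 1 higher, Zfpm1 (1.08-fold, not called with upper-quartile factors, adjusted p = 0.205), and 6 lower, including Meis1 (1.25-fold), Gata2 (1.22-fold) and Mafg (1.24-fold). Gata1 (adjusted p = 0.188) and Fli1 (0.864) were not called, nor was Gp5 (0.852), but Gata1 was called lower with upper-quartile factors (0.0496). Among receptors and signalling genes 12 rose, including F2r (1.80-fold), the thrombin receptor F2rl3 (1.65-fold) and Esam (1.48-fold), and 8 fell, including Pear1 (1.34-fold) and the phospholipase Plcg2 (1.17-fold). Among granule genes 4 rose, such as Vwf (2.11-fold), Tgfb1 (1.68-fold) and Clu (2.40-fold), and 6 fell, such as F13a1 (2.41-fold), Nbeal2, needed for alpha granules (1.27-fold), and Srgn (1.24-fold). Of the cytoskeleton and enzyme genes 5 rose, with Tpm4 (2.93-fold), the myosin kinase Mylk (1.83-fold) and Ptgs1 (1.41-fold) among them, and Tbxas1 fell 1.26-fold.

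**Figure D4:**
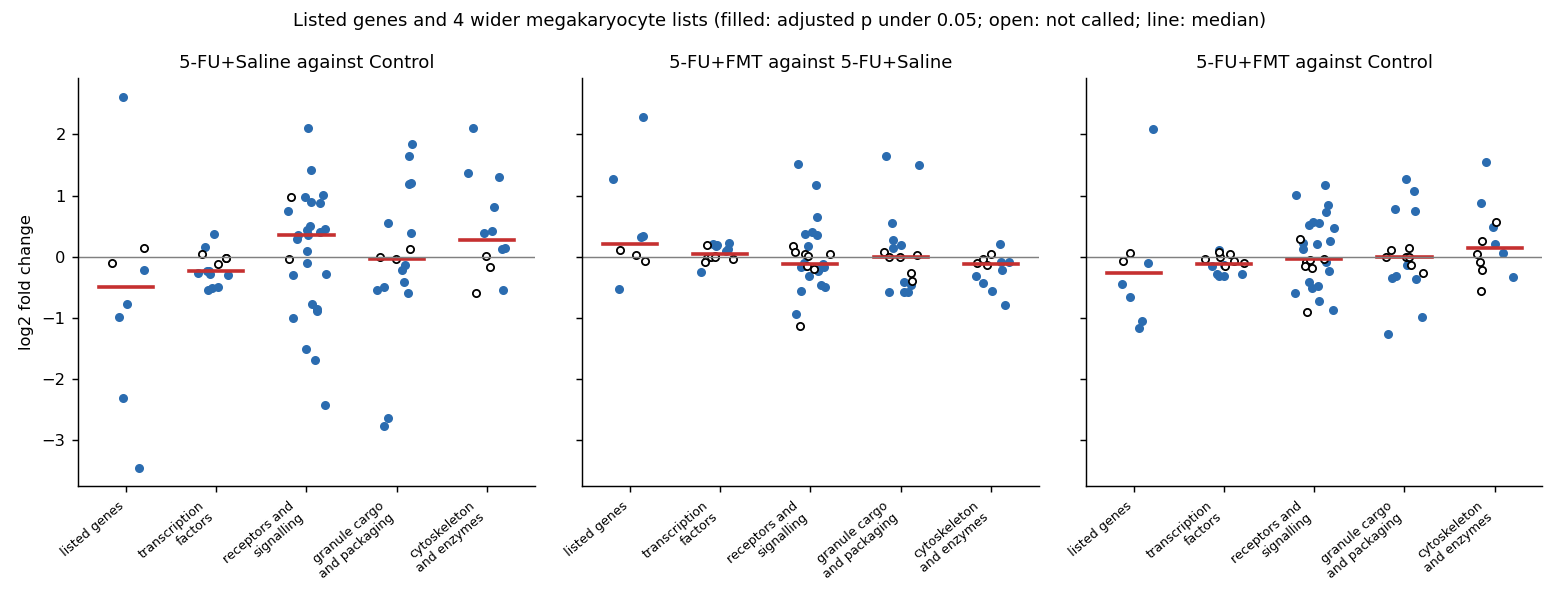
Fitted log2 fold change (vertical axis) of the 8 tested listed genes and of the 70 tested genes in 4 wider lists, 1 point a gene, with each list's median as a line. Filled points passed an adjusted p under 0.05. In 5-FU+Saline against Control the transcription factors run from -0.54 for Mafg to 0.37 for Zfpm1, and the listed genes from -3.45 to 2.61.

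The plot of the wider lists shows that points stood on both sides of 0 in each list and comparison. Genes with a like pattern were sought among 10012 genes with a mean of at least 10 CPM, by Pearson correlation of log2(CPM + 1) over the 9 libraries, which fall into 3 groups and so carry mainly the 3 group levels. Closest to Pf4 were Pcyt2 (r = 0.976), Arhgap27 (r = 0.968) and Rgs18 (r = 0.961). Closest to Itga2b were Nod1 (r = 0.975), Ppp2r3a (r = 0.975) and Frmd4a (r = 0.973), and closest to Itgb3 H2-Q7 (r = 0.994), Rmnd5b (r = 0.994) and Zcchc7 (r = 0.992). Among the closest to Selp were C1qtnf6 (r = 0.999) and Igll1 (r = 0.999), the second a B cell gene. As many as 2461 genes had r above 0.9 with Selp, 1784 with Itgb3, 409 with Itga2b and 239 with Pf4.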

How the data were processed

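RNA of sorted LT-HSCs was sequenced in 9 libraries, 3 a group, with 11098031 to 19270976 counts each. The deposited values are raw read counts per gene, made by the authors with featureCounts 2.0.1 in paired mode over GENCODE M25 exons, with no strand or multi-overlap option, per the file headers. The submitters' processing notes name Trim Galore 0.6.5, HISAT2 2.2.1, SAMtools and the build mm10, without their settings. Without those options, reads that touch more than 1 gene are not counted, and reads on both strands are.

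Gene IDs were matched to symbols for 55141 of 56262 genes. Counts were fitted with edgeR 4.0.16 (R 4.3.3), quasi-likelihood F test, TMM factors, over all 9 libraries with a term per group, for 16595 genes that passed filterByExpr. A call is a Benjamini-Hochberg adjusted p under 0.05 over those genes. CPM use TMM-scaled library sizes, and fold changes carry edgeR's small default prior count. DESeq2 1.42.0 and limma 3.58.1 served as alternatives. Promoter letters come from RefSeq (GRCm38.p6). Gp1bb had no counts and Gp6 too few to test.

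The text names all 10 genes, then from each wider list and comparison up to 3 called genes a direction with the smallest p. Gp5, Vwf, Gata1, Fli1 and Tubb1 are always named. Markers of other cells, of stem and progenitor cells and of the sort are added. A few genes that the rule names are not reported here. The members and lists were chosen with earlier results of these data known.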

Additional observations from a re-analysis of the deposited data

How the results depend on the processing

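Over 17 alternatives (RLE or upper-quartile factors, no filter, at least 5 CPM in 3 libraries, DESeq2, limma-voom, a replicate block, only the 2 groups compared, and each of the 9 libraries left out), the genes called numbered 8769 to 11072 in 5-FU+Saline against Control, 5301 to 6254 in 5-FU+FMT against 5-FU+Saline and 6912 to 7874 in 5-FU+FMT against Control. Among the megakaryocyte and platelet genes 6, 4 to 6 and 4 to 6 were called in these comparisons. Of all values recomputed, 1601 kept direction and side of the threshold, 17 lost the call, 5 gained it and 23 changed sign. The calls lost or gained belonged to Pf4, Itga2b, Zfpm1 and Gata1, and the report gives them or their adjusted p ranges. The sign changes belonged to genes not called in that comparison. Without a filter the log2 fold change of Fli1 was 0.015 in 5-FU+Saline against Control and 0.030 in 5-FU+FMT against Control, and that of Gp5 was 0.0022 in the second. With upper-quartile factors Gp9 was at -0.0027 in 5-FU+FMT against Control. With 1 library left out, the range of log2 fold changes was Fli1 -0.061 to 0.0037 in 5-FU+Saline against Control. It was Gp9 -0.16 to 0.031, Gp1ba -0.080 to 0.10, Fli1 -0.032 to 0.040, Tubb1 -0.28 to 0.20 and Gata1 -0.063 to 0.0086 in 5-FU+FMT against 5-FU+Saline. It was Gp9 -0.042 to 0.17, Gp1ba -0.17 to 0.011, Gp5 -0.14 to 0.041 and Fli1 -0.057 to 0.020 in 5-FU+FMT against Control. The cause of these changes was not tested. Ppbp rests on few counts: without 5-FU+Saline replicate 1 its log2 fold change was -1.92 in 5-FU+Saline against Control. In 5-FU+FMT against 5-FU+Saline the Ppbp value ranged from 0.88 to 1.63 with 1 library left out. Its edgeR adjusted p then lay between 4.95e-05 and 0.0124.

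Groups share replicate numbers, but same-numbered libraries did not deviate together (correlations of their deviations from group means from -0.0053 to 0.016), so the numbers were not taken as pairs. The replicate block gave 10847 called genes in 5-FU+Saline against Control (10872 without it). It gave 6193 (6123 without it) when 5-FU+FMT was set against 5-FU+Saline, and 7717 (7735 without it) when 5-FU+FMT was set against Control. The megakaryocyte and platelet genes called numbered 6, 5 and 6 with the block, as without it, and it changed no call named in the report. Depth limits Gp6, with 0 to 9 counts a library, and Ppbp.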
